A study of Mus musculus with 2 samples.

Results

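Lung cells with much fibronectin RNA that also carried complement C1q RNA were examined among donor-derived monocytes and macrophages of chimeric mice. Cells were selected on their measured Fn1 and C1q counts: a cell belonged here with at least 5 unique molecular identifiers (UMIs, counted RNA molecules) of Fn1 and at least 3 of C1qa, C1qb and C1qc together. Of 4570 kept cells, 254 met this rule, or 5.56%, and they are called Fn1-high cells below. They comprised 78 of 2674 cells from the Tgfbr2-KO pool and 176 of 1896 cells from the control pool. Because Fn1 and C1q chose the cells, their levels are a description and carry no further weight.

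Donor marrow of the Tgfbr2-KO pool was LyzM-Cre Tgfbr2 fl/fl, and that of the control pool was Tgfbr2 fl/fl without Cre. LyzM-Cre acts in cells that use the lysozyme M promoter, so deletion is meant for myeloid cells and need not be complete. All hosts were IM-DTR mice carrying both CD45.1 and CD45.2 that had been irradiated, and all received 50 ng of diphtheria toxin 10 days before sacrifice, the controls included. The toxin depletes interstitial macrophages, the macrophages of the lung tissue outside the air spaces, in such hosts. Donor cells were sorted as CD45.1-CD45.2+ and as Ly6G-SiglecF-CD11b+SSCloCD64+, and 5 mice were pooled per genotype. The ages of the mice are not given in the sources used here. Each genotype is therefore 1 pool with no replicate. No test was made and no p-value computed. Intervals are exact 95% intervals that cover counting error only and treat UMIs as independent, although UMIs of 1 cell and mice of 1 pool are not. Both pools ran in 1 droplet library, and the hashtag library covers the same 4887 called cells. The hashtags that split them into pools were these, shown because every comparison of genotypes rests on them (5′ to 3′, antibody barcodes as the labels give them):
Tgfbr2-KO, B0303: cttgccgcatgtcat
control, B0301: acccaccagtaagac

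Fibronectin is a glycoprotein of the extracellular matrix to which cells attach through integrins, and macrophages of healing or fibrotic tissue are known to secrete it. C1q starts the classical complement pathway, and resident tissue macrophages make it, whereas blood monocytes make little. TGF-beta signals through its type 2 receptor, which Tgfbr2 encodes, and is a textbook inducer of Fn1 in many cell types. Podoplanin (Pdpn), the cytokine interleukin 6 (Il6), extracellular matrix protein 1 (Ecm1) and the epidermal growth factor receptor ligand amphiregulin (Areg) served as markers of the Fn1-high state and were no part of the rule.

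The promoters of these 4 markers are shown because each marker stood higher in Fn1-high than in other kept cells. Promoter sequences come from RefSeq on build GRCm38.p6, where 4 of the 5 marker genes had an entry, and Fn1 did not match. Each runs 5′ to 3′ on the gene's strand from 250 bases before the annotated start. Capitals mark the AP-1 motif TGANTCA or the CRE motif TGACGTCA, searched on both strands. Pdpn lies at chr4:143299515-143299814 on the minus strand, Il6 at chr5:30012864-30013163 on the plus strand, Ecm1 at chr3:95739520-95739819 on the minus strand and Areg at chr5:91139349-91139648 on the plus strand.
Pdpn: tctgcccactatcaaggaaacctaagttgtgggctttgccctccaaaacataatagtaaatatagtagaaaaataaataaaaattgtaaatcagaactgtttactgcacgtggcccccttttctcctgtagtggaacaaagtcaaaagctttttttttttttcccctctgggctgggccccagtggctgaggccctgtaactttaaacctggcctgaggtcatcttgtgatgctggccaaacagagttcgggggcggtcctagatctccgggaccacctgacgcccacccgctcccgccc
Il6: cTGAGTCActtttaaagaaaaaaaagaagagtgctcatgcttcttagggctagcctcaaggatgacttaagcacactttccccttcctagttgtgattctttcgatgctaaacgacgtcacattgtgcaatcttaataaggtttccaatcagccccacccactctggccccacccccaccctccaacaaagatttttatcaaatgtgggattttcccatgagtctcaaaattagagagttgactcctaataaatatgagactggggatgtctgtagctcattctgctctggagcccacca
Ecm1: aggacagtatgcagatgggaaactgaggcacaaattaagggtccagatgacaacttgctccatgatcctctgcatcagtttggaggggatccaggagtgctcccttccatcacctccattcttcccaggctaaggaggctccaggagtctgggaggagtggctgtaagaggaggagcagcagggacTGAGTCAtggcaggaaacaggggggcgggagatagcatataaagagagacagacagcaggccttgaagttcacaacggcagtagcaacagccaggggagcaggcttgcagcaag
Areg: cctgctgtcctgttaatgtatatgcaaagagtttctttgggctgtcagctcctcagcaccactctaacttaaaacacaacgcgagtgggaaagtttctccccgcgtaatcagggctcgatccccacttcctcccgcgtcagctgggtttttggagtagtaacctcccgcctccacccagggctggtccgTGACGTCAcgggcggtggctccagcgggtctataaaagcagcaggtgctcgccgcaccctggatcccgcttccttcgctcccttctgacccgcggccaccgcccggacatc
Among all 32851 promoters of this length, 7.81% held the AP-1 motif and 1.79% the CRE motif. A match describes letters only. The Pdpn promoter held neither motif.

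Fn1-high cells made up 2.92% (2.31 to 3.63) of Tgfbr2-KO cells and 9.28% (8.01 to 10.7) of control cells, a share 3.18-fold lower (2.42 to 4.21) in the Tgfbr2-KO pool. Fn1 lies on chromosome 1 at 71585473 to 71653280 (GRCm38) and had the following counts among the chosen cells. In the 78 Tgfbr2-KO cells it ranged from 5 to 162 UMIs with a median of 13, and in the 176 control cells from 5 to 256 UMIs with a median of 36. The ranges overlapped over most of their length, and the median cell of the control pool held more Fn1. Per 1000000 gene UMIs summed over cells (UPM), Fn1 stood at 1055 in Tgfbr2-KO and 3343 in control Fn1-high cells, against 32.7 and 29.0 UPM in the other kept cells of those pools. Fn1-high cells held 62.0% of all Fn1 UMIs of the Tgfbr2-KO pool and 95.4% of those of the control pool.

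The C1q genes, which bind antibody and cell debris as 1 complex, summed to 6604 UPM in Tgfbr2-KO and 6797 UPM in control Fn1-high cells, against 10597 and 12368.5 UPM in the other cells. Just inside the Fn1 threshold, at 5 UMIs, lay 9 Tgfbr2-KO and 6 control cells, and just outside it, at 4 UMIs, lay 10 Tgfbr2-KO and 3 control cells. At the C1q threshold of 3 UMIs were 2 cells of each pool, and at 2 UMIs were 4 Tgfbr2-KO and 3 control cells. A further 40 Tgfbr2-KO and 13 control cells had enough Fn1 but too little C1q to be counted. Thresholds on raw UMIs favour deep cells. Median depth was 17241.5 and 12968.5 UMIs in Tgfbr2-KO and control Fn1-high cells, against 10145 and 7516 UMIs in the other cells. After each cell was thinned to 3000 UMIs, with Fn1 at least 2 and C1q at least 1, the share was 2.43% of 2591 Tgfbr2-KO and 9.36% of 1816 control cells. Cells with fewer UMIs than that were left out there: 1 Fn1-high cell of each pool, and 82 Tgfbr2-KO and 79 control other cells.

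**Figure D1:**
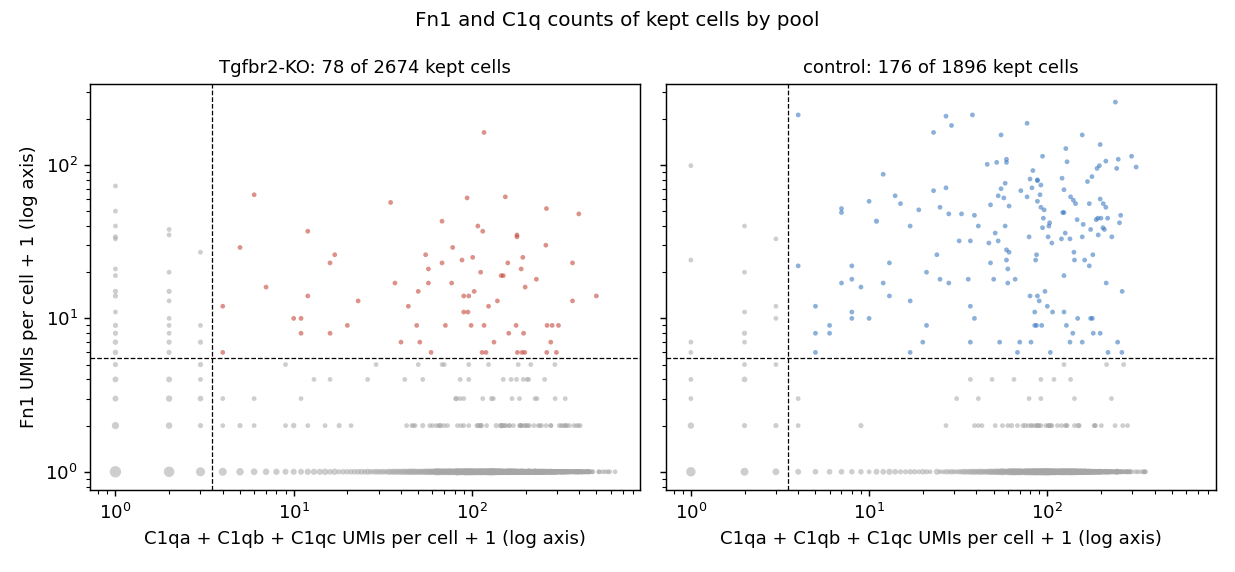
Each point is a set of kept cells with the same counts, plotted by C1q UMIs per cell plus 1 on the horizontal and Fn1 UMIs per cell plus 1 on the vertical log axis, with the Tgfbr2-KO pool on the left and the control pool on the right. Coloured points beyond both dashed lines are the 78 Tgfbr2-KO and 176 control Fn1-high cells, and grey points are other kept cells, most of which lie on the line of 0 Fn1 UMIs.

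Signs of doublets, free RNA and other cell types were measured in the same cells. Of 96 barcodes called as hashtag multiplets, which were left out, 14 met the Fn1 and C1q rule (14.6%, 8.21 to 23.3). Doublets within 1 hashtag cannot be seen and were expected for 2.18% of assigned cells. The count of the other pool's hashtag had a median of 31 UMIs in Tgfbr2-KO and 59.5 UMIs in control Fn1-high cells, against 34 and 60 UMIs in the other cells. The cell's own hashtag had a median of 1765 and 979 UMIs in Fn1-high cells, against 940.5 and 510 UMIs in the other cells. Free RNA, read from barcodes with under 100 UMIs, held Fn1 at 213 UPM, above its level in other kept cells. From the genes of that profile scarcest in the cells, free RNA could make up at most 2.88% of the UMIs of Tgfbr2-KO and 0.872% of those of control Fn1-high cells. Macrophage genes were present in most cells: the growth factor receptor gene Csf1r had a UMI in 100% of Tgfbr2-KO and 91.5% of control Fn1-high cells, and the lysosomal gene Cd68 in 96.2% and 97.2%. The neutrophil genes Ly6g, Cxcr2, Retnlg and Lcn2, the T-cell genes Cd3e and Cd3d, the serosal macrophage gene Gata6 and the alveolar macrophage gene Marco were at 0 in all Fn1-high cells. Other genes of those lists were present. The T and NK cell list summed to 156 UPM in Tgfbr2-KO and 114 UPM in control Fn1-high cells, against 69.1 and 80.3 UPM in the other cells. In Fn1-high cells 7 of its 10 genes were at 0, and nearly all of the rest was Il7r, an interleukin 7 receptor chain. The serosal macrophage list summed to 234 UPM in Fn1-high and 149.9 UPM in other cells, with the coagulation factor gene F10 at 138 UPM in Tgfbr2-KO and 37.5 UPM in control Fn1-high cells. The alveolar macrophage list summed to 953 UPM in Fn1-high and 964.9 UPM in other cells. Summed over 10 neutrophil markers, the level was 56.1 UPM in Tgfbr2-KO and 168 UPM in control Fn1-high cells, and 250 of the control UMIs were of Mmp9. The part of doublets and of these cell types in the results that follow was not tested.

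The targeted gene did not mark the pools by its level. Tgfbr2, on chromosome 9, stood at 125 UPM in Tgfbr2-KO and 168 UPM in control Fn1-high cells, 1.34-fold lower (1.13 to 1.61). The 3′ counts used here need not touch the floxed exon, so this value does not measure deletion. Lyz2, the locus that carries LyzM-Cre, stood at 7553 UPM in Tgfbr2-KO and 18458 UPM in control Fn1-high cells, 2.44-fold lower (2.39 to 2.50). Its neighbour Lyz1 stood at 1779 UPM in Tgfbr2-KO and 346 UPM in control Fn1-high cells, 5.14-fold higher (4.76 to 5.56). Both are near-identical copies that can share reads, so each level is uncertain.

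Fn1-high cells of the 2 pools lay in different places among all cells. Clustering of all 4570 cells, which used Fn1 and the markers themselves, gave 15 clusters. Cluster 6, led by Fn1, Slc7a2, Pdpn, Il6, Cd200r4, Ecm1 and Ctsk, held 15 of the 78 Tgfbr2-KO Fn1-high cells (19.2%, 11.2 to 29.7) and 162 of the 176 control Fn1-high cells (92.0%, 87.0 to 95.6). It held 46 Tgfbr2-KO and 255 control cells in all, and 58.8% of its cells were Fn1-high. Cluster 1, led by Ly6i, Ass1, Ifi205, Cfb and Ly6a, held 20 Tgfbr2-KO and 2 control Fn1-high cells. Cluster 8, led by Cd209a, Ear2, Ccl17, Flrt3 and Irf4, also held 20 Tgfbr2-KO Fn1-high cells, with 4 from the control pool. Of the remaining Tgfbr2-KO Fn1-high cells, 7 lay in cluster 4, led by Retnla and Mgl2, and 5 in cluster 13, led by Gpnmb, Fabp4 and Atp6v0d2. Another 5 lay in cluster 11, led by cell-cycle genes, and 3 in cluster 9, led by Ace and Hp among others. Single cells lay in clusters 2, 5 and 14. Genes that differ between the pools shaped the clusters, so these shares are a description of where the cells lay.

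**Figure D2:**
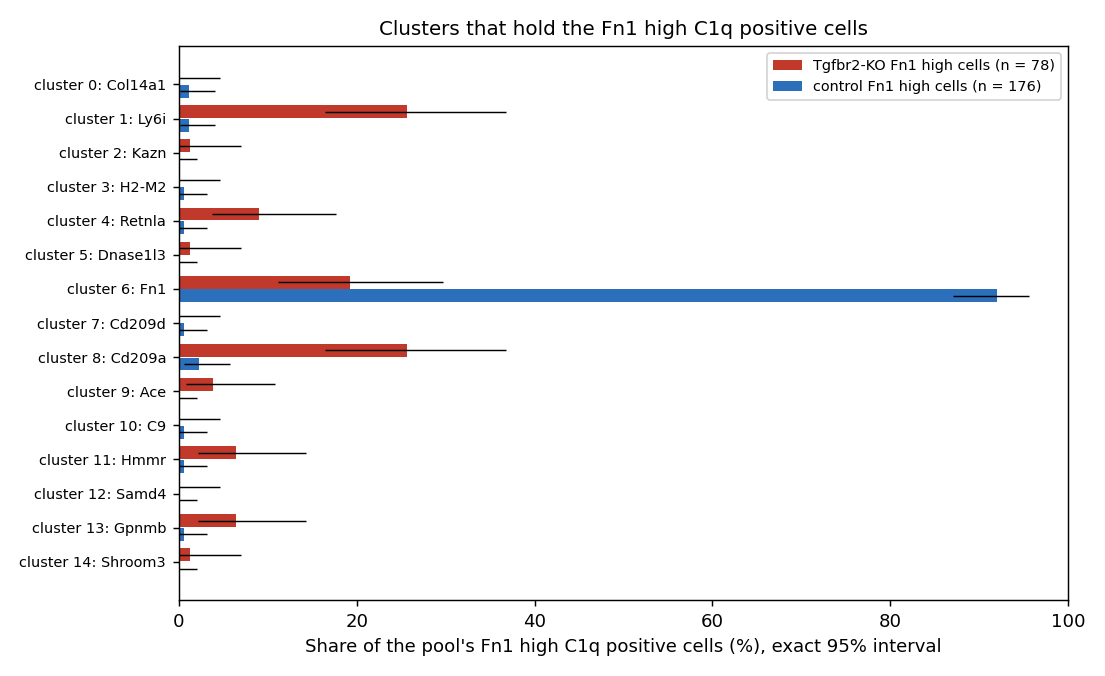
Bars give the share of each pool's Fn1-high C1q positive cells, in percent, that lay in each cluster, named by number and first leading gene, with Tgfbr2-KO above control and exact 95% intervals. Cluster 6 holds 92.0% of the control cells and 19.2% of the Tgfbr2-KO cells, and clusters 1 and 8 hold 25.6% of the Tgfbr2-KO cells each.

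Levels of the 4 other markers followed the same split. Pdpn, a membrane glycoprotein that binds CLEC-2 on platelets, had a UMI in 23.1% of Tgfbr2-KO and 77.3% of control Fn1-high cells, against 7.78% and 17.5% of the other cells. Il6, which drives the acute-phase response, had a UMI in 32 of 78 and 132 of 176 Fn1-high cells, against 11.5% and 13.4% of the other cells. For Ecm1, a secreted matrix glycoprotein, the shares were 60.3% and 91.5%, against 23.5% and 30.7% of the other cells. Areg, made by several immune cells in tissue repair, was seen in 30.8% and 43.2%, against 6.90% and 7.62% of the other cells. Thinned to 3000 UMIs per cell, the shares in Tgfbr2-KO and control Fn1-high cells were 11.7% and 54.9% for Pdpn and 29.9% and 58.9% for Il6. They were 24.7% and 68.0% for Ecm1 and 11.7% and 30.9% for Areg. As a gauge of free RNA, thinned cells of cluster 9, the cluster with the most S100a8, held a UMI of Pdpn in 0.562%, of Il6 in 3.37%, of Ecm1 in 5.06% and of Areg in 3.37%. Its cells had a median of 9105 UMIs before thinning. All marker shares in Fn1-high cells of both pools lay above these.

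Individual cells differed widely. Il6 had a median of 0 UMIs (0 to 83) in Tgfbr2-KO and 5 UMIs (0 to 83) in control Fn1-high cells. Ecm1 had a median of 1 UMI (0 to 43) in Tgfbr2-KO and 6 UMIs (0 to 28) in control Fn1-high cells. Pdpn had a median of 0 UMIs (0 to 105) in Tgfbr2-KO and 4 UMIs (0 to 111) in control Fn1-high cells. The ranges overlapped for each marker. A few cells carried much of the Tgfbr2-KO signal, since 5 cells held 78.8% of the Pdpn UMIs there, against 24.6% in the control pool. Counted together, all 4 markers were seen in 5 of 78 Tgfbr2-KO cells and in 55 of 176 control cells, and none of them in 19 Tgfbr2-KO cells and 1 control cell. Most control cells thus held 2 or more of the markers, whereas 22 further Tgfbr2-KO cells held 1 marker, against 17 control cells.

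**Figure D3:**
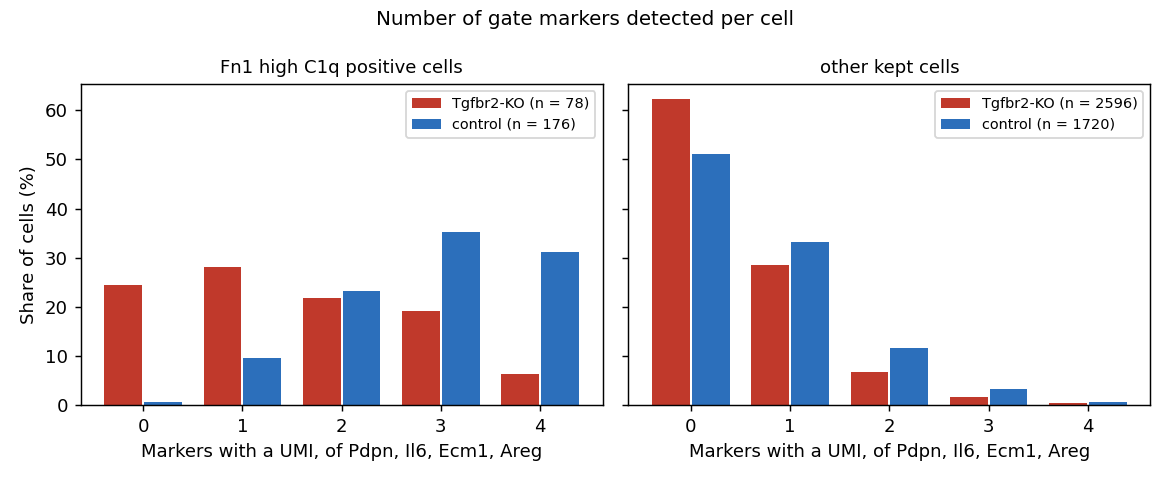
Bars give the share of cells, in percent, with a UMI of 0 to 4 of the markers Pdpn, Il6, Ecm1 and Areg, in Fn1-high C1q positive cells on the left and other kept cells on the right, with Tgfbr2-KO left of control. Control Fn1-high cells peak at 3 markers (35.2%), Tgfbr2-KO Fn1-high cells at 1 marker (28.2%), and other kept cells of both pools at 0.

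Markers were also set against the Fn1 count of the cell. Il6 stood at 131, 378 and 503 UPM in Tgfbr2-KO cells with 5 to 9, 10 to 19 and 20 or more Fn1 UMIs, and at 425, 702 and 764 UPM in the control cells of those levels. Ecm1 stood at 56.4, 146 and 400.5 UPM in Tgfbr2-KO and at 416, 488 and 538 UPM in control cells. By these raw counts, Il6 and Ecm1 were thus higher at each higher Fn1 level, and lower in Tgfbr2-KO cells at each level. Pdpn did not follow this order in the Tgfbr2-KO pool, at 173, 70.4 and 341 UPM, against 351, 477 and 711 UPM in control cells. Areg stood at 60.4, 113 and 302 UPM in Tgfbr2-KO and at 97.4, 547 and 438 UPM in control cells, where the middle level was the highest. The tiers are of raw counts and are not matched between the pools in relative Fn1. Fn1 stood at 377, 749 and 1893 UPM in Tgfbr2-KO and at 635, 1337 and 4144 UPM in control cells. Median depth was 17382.5, 16412 and 19913 UMIs in Tgfbr2-KO and 9499, 10110 and 15434.5 UMIs in control cells. The tiers hold 28, 23 and 27 Tgfbr2-KO cells and 31, 27 and 118 control cells, so single cells weigh on the smaller ones. Most of the control cells lay in cluster 6 at every level, 25 of 31, 25 of 27 and 112 of 118, whereas 3 of 28, 3 of 23 and 9 of 27 Tgfbr2-KO cells did.

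Set against the other kept cells of their own pool, Fn1-high cells carried more RNA of the 4 markers in both pools, and more of the counted matrix, growth factor and lysosomal genes were higher than lower in both. Most MHC class II genes counted were past 1.5-fold lower in the control pool but not in the Tgfbr2-KO pool. Values given first below are for both pools summed. Of 1758 genes counted, with at least 100 UMIs over both groups and 100 UPM in 1 of them, 213 lay 1.5-fold or more above the other cells (12.1%) and 150 as far below them (8.53%). The rule genes are left out of these counts. Control cells made up 176 of the 254 Fn1-high but 1720 of the 4316 other cells, so a gene that differs between the pools can also differ in the summed comparison. Within the Tgfbr2-KO pool 135 genes were higher (7.73%) and 116 lower (6.64%) of 1746, and within the control pool 285 were higher (16.2%) and 183 lower (10.4%) of 1754.

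The highest ratio belonged to Slc7a2, a transporter of arginine, at 204 UPM in Fn1-high and 9.94 UPM in other cells, 20.5-fold higher (18.3 to 23.2). Slc7a2 was seen in 10 of 78 Tgfbr2-KO and 91 of 176 control Fn1-high cells, and 5 Tgfbr2-KO cells held 92.8% of its UMIs there. Pdpn had 475 and 48.3 UPM, 9.84-fold higher (9.24 to 10.5), and Il6 573 and 70.5 UPM, 8.13-fold higher (7.70 to 8.59). Ecm1, at 402 and 55.6 UPM, was 7.23-fold higher, and Areg, at 315 and 46.0 UPM, 6.86-fold higher. These are the genes that the label names, and each was at least 4.73-fold higher within either pool alone. Also among the 15 highest were Cd200r4, an activating receptor of the CD200 receptor family (8.14-fold), and Ctsk, a collagen-cleaving cathepsin (6.93-fold). Rgcc, a cell-cycle regulator that TGF-beta induces, was 6.62-fold higher. Sgms2 (6.46-fold), an enzyme of sphingomyelin synthesis, Macrod2 (6.18-fold) and Olr1 (5.57-fold), a receptor for oxidised low-density lipoprotein, came next. Il1a, an alarmin cytokine, stood at 1026 UPM in Fn1-high and 210.2 UPM in other cells, 4.88-fold higher. The last of the 15 were Tppp3 (4.82-fold), Ear2 (5.06-fold), an eosinophil-type ribonuclease, and Retnla (4.83-fold), a secreted product of alternatively activated macrophages. Ear2 was 10.5-fold higher within the Tgfbr2-KO pool and 2.03-fold within the control pool, and Retnla 9.09-fold and 1.73-fold.

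Matrix and proteolysis genes were mostly higher: of 11 counted, 7 were past 1.5-fold higher and 1 past 1.5-fold lower, with a median log2 ratio of 0.74 against 0.03 over all counted genes. By pool, 7 were higher and 1 lower of 10 in Tgfbr2-KO cells, and 7 and 1 of 12 in control cells. Mmp19, a matrix metalloproteinase, was 3.37-fold higher. Mmp9, a gelatinase, stood at 10.8 UPM in Fn1-high and 146 UPM in other cells of the Tgfbr2-KO pool, 13.5-fold lower (8.28 to 23.6), but at 101 and 103 UPM in the control pool (ratio interval 0.854 to 1.12). Growth factors numbered 4 higher and 0 lower of 7, with Osm, a cytokine of the interleukin 6 family, 2.90-fold and the angiogenic factor Vegfa 2.06-fold higher. By pool, 3 were higher and 1, Igf1, lower of 9 in Tgfbr2-KO cells, and 4 and 0 of 7 in control cells. Among fibronectin receptors, 1 of 8 passed 1.5-fold, Cd44, which also binds hyaluronan, at 1.71-fold higher. Itga5, whose integrin is the classical fibronectin receptor, was 1.41-fold higher.

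Lysosomal and lipid genes included 10 higher and 0 lower of 19 counted, with a median log2 ratio of 0.73. Split by pool, 6 were higher and 1, Apoe, lower of 18 in Tgfbr2-KO cells, and 9 and 0 of 19 in control cells. Ctsd, a lysosomal protease, stood at 1924 UPM in Fn1-high and 567 UPM in other cells, 3.39-fold higher (3.31 to 3.48). Cd9, a tetraspanin, was 2.92-fold higher, Abcg1, a cholesterol exporter, 2.75-fold, and Mitf, a transcription factor of lysosomal genes, 2.65-fold. Trem2, a lipid-sensing receptor, was 2.32-fold higher. Within the control pool Cd9, Abcg1 and Trem2 were past 1.5-fold higher. They were not among the genes past it within the Tgfbr2-KO pool, whereas Ctsd and Mitf were in both. Oxidative-stress genes had 4 higher and 0 lower of 10, led by the cystine transporter gene Slc7a11 at 3.96-fold. By pool, 2 were higher and 0 lower of 9 in Tgfbr2-KO cells, Slc7a11 and Mt2. In control cells they were 2 and 0 of 10, Slc7a11 and Prdx1.

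Among TGF-beta target genes, a list chosen with earlier results known, 7 of 12 were past 1.5-fold higher and 0 lower, with a median log2 ratio of 0.66. In the Tgfbr2-KO pool alone 3 of 9 passed upward and 0 downward (median 0.17), and in the control pool alone 7 of 14 and 2 (median 0.55). Bhlhe40, a transcription factor, was 3.48-fold higher, and Pmepa1, a feedback inhibitor of TGF-beta signalling, 2.03-fold. Pmepa1 was 1.26-fold lower (1.03 to 1.56) within the Tgfbr2-KO pool and 1.68-fold higher (1.56 to 1.81) within the control pool. Inflammatory genes were split, with 6 higher and 2 lower of 13. The neutrophil attractant Cxcl1 was 2.57-fold higher, while the chemokine Ccl4 was 2.27-fold lower. For Il1b, a fever-inducing cytokine, the interval of the ratio ran from 0.983 to 1.02.

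MHC class II genes were past 1.5-fold lower mostly in the control pool. The list of CD206- interstitial macrophage markers holds these and other genes. In both pools summed, 9 of its 10 counted genes were past 1.5-fold lower and 0 higher, with a median log2 ratio of -1.26. Within the Tgfbr2-KO pool 4 of 10 were lower, H2-Eb1, H2-M2, Ms4a7 and Cd72, with a median of -0.56. Of these only H2-Eb1 is an MHC class II gene. Within the control pool 9 of 10 were lower, with a median of -1.78, among them H2-Aa, H2-Ab1, H2-Eb1, Cd74, H2-DMa and H2-DMb1. H2-Aa, an MHC class II chain, was 1.49-fold lower (1.46 to 1.52) within the Tgfbr2-KO and 3.86-fold (3.77 to 3.95) within the control pool. The list of CD206+ interstitial macrophage markers had 3 lower and 0 higher of 6 counted in both pools summed. By pool, 5 of 6 were lower in Tgfbr2-KO cells and 1 of 4 in control cells, with 0 higher in either. Of 11 interferon-response genes, 9 were past 1.5-fold lower and 0 higher in both pools summed, with a median log2 ratio of -1.09. Within the Tgfbr2-KO pool 3 of 14 were lower, Cxcl9, Irf7 and Ly6a, with a median of -0.29, and within the control pool 2 genes were counted, both lower. The 15 lowest genes of the summed comparison included Ms4a4c (4.89-fold lower), the nuclease Dnase1l3 (4.69-fold), the inhibitory B-cell and myeloid receptor Cd72 (4.19-fold), and the chemokine Ccl8 (3.82-fold). Ly6a (3.63-fold), Irf7 (3.40-fold) and Cxcl9 (3.12-fold), all induced by interferon, were among them too. Ighm (3.29-fold), Calhm6 (2.99-fold), Runx3 (2.84-fold), Lst1 (2.81-fold), Ms4a7 (2.79-fold), Ms4a6b (2.78-fold), Ccl12 (2.69-fold) and Ccl5 (2.68-fold) made up the rest. Ccl8 too depended on the pool: it stood at 348 UPM in Tgfbr2-KO Fn1-high cells against 1926 UPM in other Tgfbr2-KO cells, but at 382 UPM in control Fn1-high cells against 327.5 UPM in other control cells, a log2 ratio of 0.22.

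**Figure D4:**
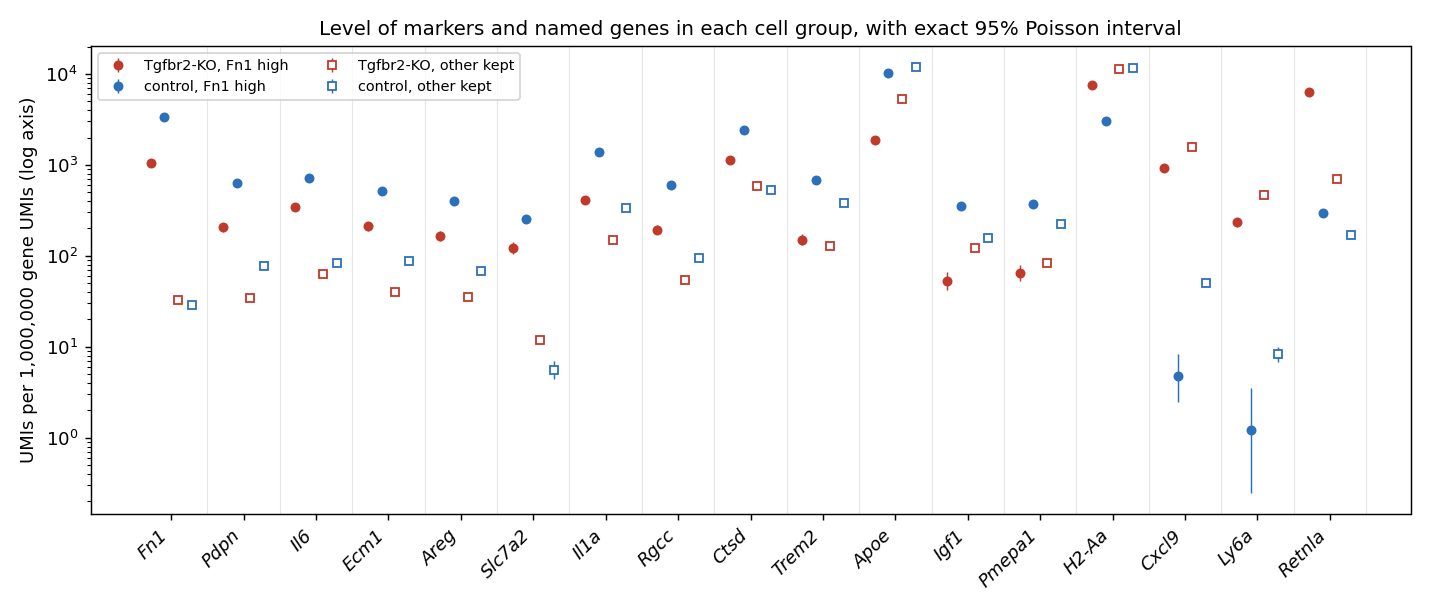
Points give UPM on a log axis with exact 95% Poisson intervals for 17 genes, from left to right in each gene for Tgfbr2-KO and control Fn1-high cells (filled circles) and Tgfbr2-KO and control other kept cells (open squares). Pdpn, Il6, Ecm1 and Areg lie highest in control Fn1-high cells, with Tgfbr2-KO Fn1-high cells next, whereas Cxcl9 and Ly6a lie near 1 to 5 UPM in control Fn1-high cells and at 920.0 and 234 UPM in Tgfbr2-KO Fn1-high cells.

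Between the pools, Tgfbr2-KO Fn1-high cells carried more RNA of interferon-response, MHC class II and monocyte genes, and less of TGF-beta targets, of lipid and lysosomal genes and of inflammatory genes. Other measures moved with these groups: of 11 dissociation-stress genes, which respond to tissue digestion, 5 (Fosb, Jun, Egr1, Ier2 and Dnajb1) were lower and 0 higher, against 1 lower and 0 higher of 10 in the other cells. In cluster 6, described below, 4 of 11 were lower. Median mitochondrial shares were 2.46% in Tgfbr2-KO and 3.91% in control Fn1-high cells. Their part in the differences was not tested. Of 1863 genes counted, 309 lay 1.5-fold or more above the control level (16.6%) and 308 as far below it (16.5%) in Tgfbr2-KO cells. The same comparison in other kept cells gave 202 higher (11.8%) and 151 lower (8.82%) of 1712. Most cells of each pool lay in different clusters, so values for the 15 Tgfbr2-KO and 162 control Fn1-high cells of cluster 6 are given beside the pooled ones. There 224 genes were higher (12.1%) and 211 lower (11.4%) of 1846. Cluster 6 and its use were chosen after the data were seen.

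Interferon-response genes stood higher in every case counted, 12 of 12 in Tgfbr2-KO Fn1-high cells with a median log2 ratio of 2.98, and 13 of 13 in the other cells with a median of 2.71. Cxcl9, a chemokine for T cells, stood at 920.0 UPM in Tgfbr2-KO and 4.83 UPM in control Fn1-high cells, 190-fold higher (109 to 369). It had a UMI in 36 of 78 Tgfbr2-KO cells, up to 279 UMIs, and in 10 of 176 control cells, up to 3 UMIs. Ly6a, a surface protein that interferon induces, stood at 234 UPM in Tgfbr2-KO and 1.21 UPM in control Fn1-high cells, a ratio of 194 (65.7 to 943) that rests on 3 control UMIs. Its relative Ly6i had 228 UMIs in Tgfbr2-KO and 2 in control Fn1-high cells. The interferon-induced GTPase genes Iigp1 and Gbp2 were 75.9-fold (29.2 to 282) and 16.9-fold (12.3 to 24.0) higher, and Zbp1, a sensor of nucleic acids, 10.7-fold (6.97 to 17.0). In cluster 6, Cxcl9 and Ly6a were at 0 of the 253947 UMIs of the 15 Tgfbr2-KO cells, so no fold is given there. Of the 5 interferon genes counted in that cluster, all were higher, and Ifitm3, an antiviral membrane protein, stood at 1646 UPM in Tgfbr2-KO and 201 UPM in control cells, 8.17-fold higher (7.14 to 9.35).

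MHC class II genes and monocyte genes were higher as well. Of 9 genes counted in the CD206- list, 7 were higher and 1 lower, with a median log2 ratio of 1.34, while 1 was higher and 2 lower of 10 in the other cells. H2-Aa stood at 7634 UPM in Tgfbr2-KO and 3020 UPM in control Fn1-high cells, 2.53-fold higher (2.45 to 2.60). In cluster 6 it was 1.22-fold higher (1.13 to 1.31). Of 8 genes of the CD206- list counted there, 0 were past 1.5-fold higher and 1, Ms4a7, lower, with a median log2 ratio of 0.35. Of 6 classical monocyte genes, 5 were higher and 0 lower, with a median log2 ratio of 1.83, and in the other cells 4 of 6 were higher, with a median of 1.76. Ly6c2, which marks classical monocytes, stood at 134 UPM in Tgfbr2-KO and 2.42 UPM in control Fn1-high cells and was seen in 19 of 78 and 3 of 176 cells. Plac8, found in monocytes, was 33.2-fold higher (22.2 to 51.7). In cluster 6 the Tgfbr2-KO cells held 1 UMI of Ly6c2 and 0 of Plac8. Fcgr4, an activating Fc receptor, was 22.8-fold higher (14.6 to 37.4), and Plcb1, a phospholipase, 12.2-fold (7.72 to 20.3). Summed over the classical monocyte list, the level was 2810 UPM in Tgfbr2-KO and 1496 UPM in control Fn1-high cells; in cluster 6, 2 of 5 counted genes of the list, Thbs1 and F10, were higher. The part of monocytes in these differences was not tested.

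Retnla was higher in all Tgfbr2-KO Fn1-high cells together but not in cluster 6, whereas Inhba was higher in both. Retnla stood at 6391 UPM in Tgfbr2-KO and 294 UPM in control Fn1-high cells, 21.7-fold higher (20.2 to 23.5). Its median was 0 UMIs (0 to 1238) in Tgfbr2-KO and 0 UMIs (0 to 442) in control cells. It was seen in 35 of 78 and 18 of 176 cells, and 5 control cells held 96.2% of its control UMIs. It reached 31831 UPM in the 7 Tgfbr2-KO cells of cluster 4 and 14402 UPM in the 20 of cluster 8, but 7.88 UPM, or 2 UMIs, in the 15 of cluster 6, against 44.1 UPM in control cells there. Inhba, a subunit of activin, stood at 181 UPM in Tgfbr2-KO and 3.22 UPM in control Fn1-high cells, 56.2-fold higher (28.1 to 132). It was seen in 27 of 78 and 7 of 176 cells, and 5 Tgfbr2-KO cells held 75.7% of its UMIs there. In cluster 6 it remained at 106 UPM in Tgfbr2-KO and 2.64 UPM in control cells, 40.2-fold higher (16.3 to 119), on 27 and 6 UMIs. Inhba was past 1.5-fold higher in the other kept cells of the Tgfbr2-KO pool too. It was highest in the 5 Tgfbr2-KO cells of cluster 13, at 1043 UPM, where Gpnmb, a lysosomal glycoprotein, stood at 1239 UPM and the fatty acid binding protein gene Fabp5 at 5940.2 UPM.

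TGF-beta targets were lower in Tgfbr2-KO Fn1-high cells. Of 12 counted, 8 were past 1.5-fold lower and 1 higher, with a median log2 ratio of -1.07, against 5 lower and 1 higher of 12 and a median of -0.31 in the other cells. Pmepa1 stood at 65.6 UPM in Tgfbr2-KO and 375 UPM in control Fn1-high cells, 5.71-fold lower (4.63 to 7.12). Ldlrad4, which restrains TGF-beta signalling, was 3.21-fold lower (2.72 to 3.83). Thbs1, a matrix protein that can activate TGF-beta, was the exception, at 381 UPM in Tgfbr2-KO and 112 UPM in control Fn1-high cells, 3.42-fold higher (2.95 to 3.96). Within cluster 6, Pmepa1 was 2.22-fold (1.64 to 3.06) and Ldlrad4 2.15-fold lower, and Thbs1 4.31-fold higher. Of the 12 targets counted there, 7 were lower and 1 higher. Without the cells of cluster 6, Thbs1 had a log2 ratio of -0.69.

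The growth factor Igf1 had the lowest ratio of the genes counted under the naming rule, at 53.4 UPM in Tgfbr2-KO and 355 UPM in control Fn1-high cells, 6.65-fold lower (5.27 to 8.48). It was seen in 21 of 78 Tgfbr2-KO and 136 of 176 control cells, with a median of 0 UMIs (0 to 10) and 3 UMIs (0 to 50). In cluster 6 it was 4.73-fold lower (3.04 to 7.78), whereas in the other kept cells it was 1.28-fold lower (1.22 to 1.36). Nrg1, an ErbB receptor ligand, was higher in Tgfbr2-KO Fn1-high cells, at 115 UPM against 23.8 UPM in control cells, 4.84-fold (3.58 to 6.62). Without the cells of cluster 6 its log2 ratio was -1.18.

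Lipid and lysosomal genes had 9 lower and 3 higher of 20 counted, against 6 lower and 2 higher of 17 in the other cells. In cluster 6, 6 of them were lower and 2 higher of 20. Apoe, a carrier of cholesterol, stood at 1879.9 UPM in Tgfbr2-KO and 10312 UPM in control Fn1-high cells, 5.49-fold lower (5.27 to 5.71), with a median of 4.5 UMIs (0 to 324) and 98 UMIs (0 to 647) per cell. Trem2 had 151 and 687 UPM, 4.56-fold lower (3.96 to 5.26), and was seen in 51.3% and 96.6% of cells. Cd9 was 3.86-fold and Ctsd 2.13-fold lower. Lpl, a lipase of triglycerides, had 742 and 217 UPM, 3.43-fold higher (3.09 to 3.80), but was 2.44-fold lower (1.61 to 3.88) within cluster 6. In cluster 6, Apoe was 2.66-fold (2.50 to 2.83) and Trem2 1.73-fold (1.42 to 2.13) lower.

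The other low genes were Serpinb6a (4.65-fold), a protease inhibitor, Tfec (4.63-fold), a relative of Mitf, Fgf13 (4.60-fold), Rnase4 (4.56-fold), a secreted ribonuclease, Mthfs (4.27-fold), an enzyme of folate metabolism, Bcar3 (4.27-fold) and Dmxl2 (4.20-fold). Each of these was also lower in cluster 6, by 1.68 to 2.92-fold. Dmxl2 did not share this direction in the other kept cells, at 1.04-fold higher (0.895 to 1.21). Cxcl3, a neutrophil attractant, was 5.52-fold lower (3.87 to 8.11) in Tgfbr2-KO Fn1-high cells and 1.33-fold lower (0.890 to 2.07) in cluster 6. Inflammatory genes in all had 8 lower and 2 higher of 14, against 6 lower and 0 higher of 13 in the other cells. In cluster 6, 2 of them were lower and 3 higher of 14. Il1a stood at 416 UPM in Tgfbr2-KO and 1389 UPM in control Fn1-high cells, 3.34-fold lower (3.06 to 3.64). In cluster 6 the levels of Il1a lay closer, at 1256 UPM in Tgfbr2-KO and 1452 UPM in control cells. Matrix genes had 5 lower and 2 higher of 12, with Mmp9 at 10.8 and 101 UPM, 9.31-fold lower (5.62 to 16.5). Integrin genes Itga5, Itgav and Itgb5 were 2.14-fold, 1.77-fold and 2.54-fold lower, Itgav not in cluster 6 (ratio interval 0.791 to 1.30), which made 3 lower and 0 higher of 8 fibronectin receptors. The same 3 genes were past 1.5-fold lower in the other cells. Glycolysis genes had 6 higher and 0 lower of 11, against 9 higher and 1 lower of 12 in the other cells.

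The 4 markers of the state were lower in all Tgfbr2-KO Fn1-high cells together and mostly not within cluster 6. Pdpn, Il6 and Ecm1 lead cluster 6, and clustering used all 4 markers, so cells of that cluster were in effect picked on marker levels and the values there are a description only. Pdpn stood at 207 UPM in Tgfbr2-KO and 635 UPM in control Fn1-high cells, 3.07-fold lower (2.71 to 3.48). Il6 had 342 and 710.5 UPM, 2.08-fold lower (1.88 to 2.30), Ecm1 had 212 and 516 UPM, 2.44-fold lower (2.15 to 2.77), and Areg 166 and 404 UPM, 2.43-fold lower (2.11 to 2.80). Among the 15 Tgfbr2-KO and 162 control cells of cluster 6, Il6 had 1197 and 707 UPM, 1.69-fold higher (1.49 to 1.92), and Ecm1 889.9 and 549 UPM, 1.62-fold higher (1.40 to 1.87). Areg was 1.28-fold higher (1.07 to 1.53) and Pdpn 1.28-fold lower (1.07 to 1.53) there. Without the cells of cluster 6, which leaves few control cells, the log2 ratio of Areg was 1.58. Areg was thus higher in Tgfbr2-KO cells on either side of that split, and lower only in all Fn1-high cells together. Vegfa stood at 532 UPM in Tgfbr2-KO and 160 UPM in control cells of cluster 6, 3.31-fold higher (2.70 to 4.05). Outside cluster 6, Il6 was low in the 20 Tgfbr2-KO cells of cluster 1, at 32.3 UPM, and at 448 UPM in the 20 of cluster 8, where Pdpn stood at 16.3 UPM.

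**Figure D5:**
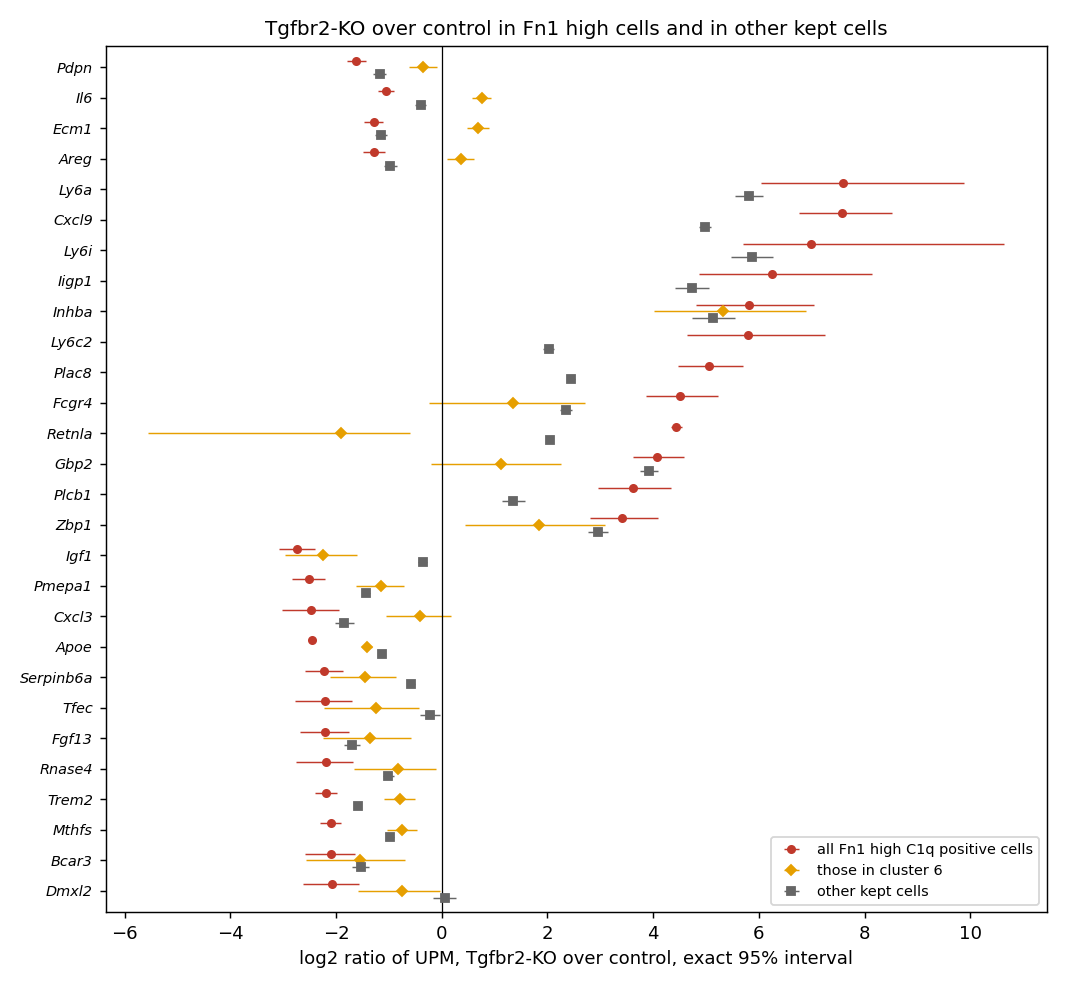
Points give the log2 ratio of UPM, Tgfbr2-KO over control, with exact 95% intervals, for the 4 markers and for 12 named genes at either end of the ratios in Fn1-high cells, in all Fn1-high cells (circles), in those of cluster 6 (diamonds) and in other kept cells (squares). Il6, Ecm1, Areg and Retnla lie on opposite sides of 0 in all Fn1-high cells and in cluster 6, while Inhba stays above 0 and Igf1 and Pmepa1 below 0 in both. Values with under 20 UMIs or none in 1 pool are not drawn.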

How the data were processed

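Gene and hashtag libraries of 1 droplet run (10x 3′ v3) were used. Raw UMI counts per gene and barcode were deposited by the authors without a filter to cells; Cell Ranger 8.0 and Seurat 5.1.0 are named in the submitters' processing notes, the matrix was made with Cell Ranger 8.0.0 per the file headers, and the build is GRCm38. The assignment table, as deposited by the authors, gives each called cell a hashtag state and its probability as a fraction from 0 to 1. Its 4887 cells were all found in the matrix, and 4671 were assigned to 1 hashtag.

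Kept cells had 1000 or more gene UMIs, 500 or more genes and no more than 10% of UMIs from mitochondrial genes. Summed depth was 1479364 and 2482704 UMIs in Tgfbr2-KO and control Fn1-high cells, and 29249840 and 13815748 UMIs in the other cells. UMIs were summed over cells and divided by all gene UMIs of those cells (UPM, per 1000000), and ratios of these carry exact 95% intervals. Genes with at least 100 UMIs over both groups and 100 UPM in 1 were counted past 1.5-fold. With 1 pool per genotype no model was fitted. Named genes were the 15 counted genes at either end of the ratios against other cells and the 12 between the pools, with a UMI in at least 20% of cells of the higher group, without mitochondrial, ribosomal and sex-linked genes. The markers, Tgfbr2, Lyz2 and Lyz1 and the 4 genes of each list with the largest ratios were named too, save for some not reported here. Genes named for their behaviour within clusters were chosen after their values were seen. The cells and the lists were chosen with earlier results of these data known.

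Clustering used 2000 variable genes, 30 principal components, 15 neighbours and Leiden resolution 0.8. No doublet caller was run beyond the deposited hashtag calls. The counting step, tested on simulated data with 200 genes changed 2-fold, recovered 100% of them in both comparisons. The planted change lay above the 1.5-fold line, so this checks the counting only. It does not measure spread among cells or mice. Python 3.11.15, numpy 2.4.6, scipy 1.17.1, pandas 2.3.3, scikit-learn 1.9.0, leidenalg 0.10.2 and matplotlib 3.10.9 were used. Alternatives changed the rule, the cell filters, depth, scaling, free RNA and the cells compared.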

Additional observations from a re-analysis of the deposited data

Results flagged for a closer look

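Among the 96 barcodes called as hashtag multiplets, which entered no comparison, 14 met the Fn1 and C1q rule (14.6%, 8.21 to 23.3). The share was 2.92% in the Tgfbr2-KO pool and 9.28% in the control pool. A hashtag multiplet joins cells that differ in hashtag, and each can bring it past the rule. Its share therefore cannot be set directly against that of 1 pool. Multiplets had a median of 17053.5 UMIs. Of 66 unassigned cells 1 met the rule, as did 1 of 54 cells called blank.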

How the results depend on the processing

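The share of Fn1-high cells was lower in the Tgfbr2-KO pool under all 8 other rules and filters, with a log2 ratio from -2.07 (rule per 10000 UMIs) to -1.36 (Fn1 at least 3), against -1.67. Counts of genes past 1.5-fold moved by more than 1.5 times under these settings. With no minimum beyond 20 UMIs they were 1797 higher and 1485 lower of 12504 genes against other cells. Between the pools they were 1329 higher and 1694 lower of 8760. The Tgfbr2-KO pool alone gave 135 higher of 1746 against its other cells. Fn1-high cells thinned to 3000 UMIs gave 178 higher of 1225 between the pools. Fn1-high cells of cluster 6 alone gave 332 higher and 242 lower of 1819 against other cells. The main settings counted 1758 genes against other cells and 1863 between the pools. With the minimum of 20 UMIs and with thinning, the number of genes counted thus changed along with the counts.

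Over 62 genes named against other cells and 60 named between the pools, direction was kept in 1048 of 1054 and in 939 of 960 values. Most of these genes were named for large ratios in these same cells, and most settings keep most cells. Kept direction therefore carries little weight. Between the pools in cluster 6 alone, 6 genes stayed within the main interval, 45 lay outside it and 9 turned. Without cluster 6 they were 18, 36 and 6. Called directions turned in these cases, as log2 ratios, and the cause was not tested. Against other cells, Ccl8 was 0.22 within the control pool, Igf1 -1.20, Pmepa1 -0.33 and Mertk -0.12 within the Tgfbr2-KO pool, and Retnla -3.72 for cluster 6. Between the pools in cluster 6, Il6 was 0.76, Ecm1 0.70, Areg 0.36, Ctsk 0.30, Slc7a11 0.072, Txnrd1 0.060, Itgav 0.029, Lpl -1.29 and Retnla -1.90. Between the pools without cluster 6, which leaves 14 control cells, Atp6v0d2 was 1.67, Areg 1.58, Cxcl1 0.33, Mertk 0.012, Thbs1 -0.69 and Nrg1 -1.18. In cluster 6, Ly6a, Ly6i and Ly6c2 had too few UMIs in both pools for a direction, and Cxcl9 and Plac8, at 0 UMIs in Tgfbr2-KO cells, count as kept only through the floor of 3 counts. The settings by cluster were chosen after seeing the data. No paired analysis was possible because each genotype was 1 pool. Leaving out a replicate was likewise not possible. Depth limits genes with few UMIs, and mice within a pool cannot be told apart.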
